A study of Homo sapiens with 8 samples.

Results

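RARRES1 and 8 other genes tied to the response to retinoic acid were followed in 8 tumours grown in mice from H2122, a long-established line of human lung cancer cells. The tumours fell into 4 of the parental line, whose genotype is given as WT, and 4 of H2122 cells with a SMARCA4 knockout (KO). Every tumour of both groups had received vehicle, so no drug effect was measured. The labels name neither the mouse strain nor whether the knockout cells were a clone or a pool, and they do not say that replicates came from separate animals, so the p-values measure the spread between these samples. SMARCA4 encodes an ATPase that drives SWI/SNF chromatin remodelling complexes. The 9 members were found by gene symbol among the 59050 symbols of each count file, where RARRES3 is listed as PLAAT4. RARRES1 was chosen by its value in these same tumours, its low count after the knockout, and is therefore described without a test. The other 8 were taken by name as retinoic acid carriers, enzymes and responders.

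Retinoic acid is made from vitamin A inside cells. Retinol enters, in some tissues through the receptor STRA6, is oxidised to retinal and then to retinoic acid, and the acid reaches nuclear receptors of the RAR and RXR families that sit on paired DNA half-sites near target genes. Carriers of the CRABP family hold the acid in the cytoplasm, DHRS3 turns retinal back into retinol, and CYP26 enzymes break the acid down. Several of these genes are themselves induced by retinoic acid, which makes them feedback parts of the pathway as well as readouts of it. In airway epithelium the pathway is known for controlling differentiation, and RARRES1 is often silenced in carcinomas.

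The promoters of 4 genes are shown because they frame the results: RARRES1 and its neighbour LXN, which were low together in the knockout, and CYP26A1 and RARB, which carry the textbook response element. Each is the 250 bases before a start site, 5′ to 3′ on the gene's strand, from RefSeq on GRCh38.p14. They lie at chr3:158732458-158732707 (RARRES1, minus strand), chr3:158672649-158672898 (LXN, minus strand), chr10:93073643-93073892 (CYP26A1, plus strand) and chr3:25428013-25428262 (RARB, plus strand). Capitals mark a pair of half-sites in the same orientation, 5 bases apart, on either strand.
RARRES1: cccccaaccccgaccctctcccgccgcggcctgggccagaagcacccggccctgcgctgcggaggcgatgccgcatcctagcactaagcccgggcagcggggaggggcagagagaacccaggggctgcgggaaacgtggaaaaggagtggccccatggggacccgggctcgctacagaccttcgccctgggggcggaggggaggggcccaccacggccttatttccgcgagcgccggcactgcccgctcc
LXN: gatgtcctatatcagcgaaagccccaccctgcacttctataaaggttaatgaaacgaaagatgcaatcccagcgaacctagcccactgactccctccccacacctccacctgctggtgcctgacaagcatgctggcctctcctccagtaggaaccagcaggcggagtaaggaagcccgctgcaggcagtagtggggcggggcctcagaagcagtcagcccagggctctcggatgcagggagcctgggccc
CYP26A1: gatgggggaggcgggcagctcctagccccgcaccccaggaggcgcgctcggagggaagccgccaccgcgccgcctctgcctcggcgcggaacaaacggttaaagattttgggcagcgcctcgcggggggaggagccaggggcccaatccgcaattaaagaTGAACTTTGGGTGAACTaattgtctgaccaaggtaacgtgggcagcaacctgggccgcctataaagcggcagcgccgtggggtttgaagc
RARB: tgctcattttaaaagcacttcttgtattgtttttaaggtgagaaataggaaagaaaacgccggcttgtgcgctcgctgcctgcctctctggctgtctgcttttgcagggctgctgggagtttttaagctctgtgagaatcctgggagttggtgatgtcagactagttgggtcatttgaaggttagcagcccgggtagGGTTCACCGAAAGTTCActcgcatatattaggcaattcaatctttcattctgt

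The search used the half-sites AGGTCA and, as variants of it, AGTTCA, beside GGGTCA as well as GGTTCA, in direct pairs with 1, 2 or 5 bases between them, on both strands of a window from 250 bases before to 50 bases after each start. Of 35116 RefSeq windows of that length, 0.259% held such a pair, and 0.0883% held the pair with 5 bases between. Windows were available for 8 of the 9 members (15 windows), and 1 of those, the CYP26A1 window shown, held a pair. It reads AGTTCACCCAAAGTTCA on the strand opposite to the gene. Of 88 windows of 54 other genes of a wider retinoid list, 1 held a pair, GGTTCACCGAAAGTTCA in the RARB window shown. These matches describe letters and not bound sites. The RARRES1 window had a GC content of 72.0% with 28 CpG dinucleotides and the LXN window 58.7% with 9, where the median over all windows was 58.7% and 14.

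Each library held 19785922 to 23191698 gene counts. Levels are given as CPM, counts scaled to the effective library size that TMM (the trimmed mean of M-values) gives, and fold changes as knockout over parental on the log2 scale, from edgeR's quasi-likelihood test with p-values adjusted over the 16219 genes that passed a filter on low counts. A gene is called changed at an adjusted p under 0.05. SMARCA4 was at 220.4, 229, 198 and 235 CPM in parental replicates 1 to 4 and at 29.6, 26.2, 22.3 and 31.1 CPM in knockout replicates 1 to 4, so every library matched its label (log2 fold change -3.02, SE 0.117, edgeR adjusted p = 1.45e-07; 12.4% of the parental level remained). The 7 epithelial marker genes summed to 6210 to 7310 CPM in parental and 4820 to 6470 CPM in knockout tumours. Of these, 3 were called lower, where 14.1% of all tested genes were. The knockout range lay below the parental range for KRT19, KRT7, CLDN4 and EPCAM and overlapped it for KRT8, KRT18 and CDH1. The lung lineage gene NKX2-1 had no counts in any tumour, and 4 lung adenocarcinoma markers together stayed between 1.49 and 3.17 CPM, so the labelled lung origin rests on the cell line's name. Summed markers of leukocytes were 12.4, 68.3, 59.0 and 7.02 CPM in parental replicates 1 to 4 and 12.1 to 28.7 CPM in knockout tumours. Fibroblast markers summed to 179 to 607 and 343 to 603 CPM, of which COL1A1 alone gave 174 to 572 and 317 to 565 CPM. PDGFRA and THY1 were under 0.2 CPM in every library, and DCN and PDGFRB reached at most 0.439 and 0.468 CPM. Of the 8, LUM was called higher (0.104 to 0.638 against 10.1 to 15.5 CPM). Endothelial markers summed to 7.15 to 17.6 and 8.36 to 15.1 CPM. Of these 5, PECAM1 made up most of the sum, at 5.14 to 12.9 and 7.99 to 14.6 CPM. VWF was called lower (1.27 to 3.08 against 0.280 to 0.439 CPM). CDH5 was at 0.0488 to 1.16 CPM in parental tumours and at 0 in all knockout tumours. Skeletal muscle markers reached 22.4 CPM in parental replicate 2 and 12.7 CPM in knockout replicate 4 and were at 4.51 CPM or less elsewhere. In bulk tumours, fewer cells of a type and less RNA per cell cannot be told apart, and any mouse reads that resemble human transcripts may be included.

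Of the 9 members, 6 passed the filter. Leaving RARRES1 aside, 5 members were tested and 4 were called changed, 3 lower and 1 higher, where 27.0% of all tested genes were called, 14.1% lower and 13.0% higher. The median log2 fold change of these 5 was -1.25, against 0.0035 over all genes tested. In 3 of the 5 the 4 knockout values did not overlap the 4 parental values, which held for 29.3% of all tested genes. The members had been proposed with results of these tumours known, so these shares describe the set and support nothing beyond it.

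**Figure D1:**
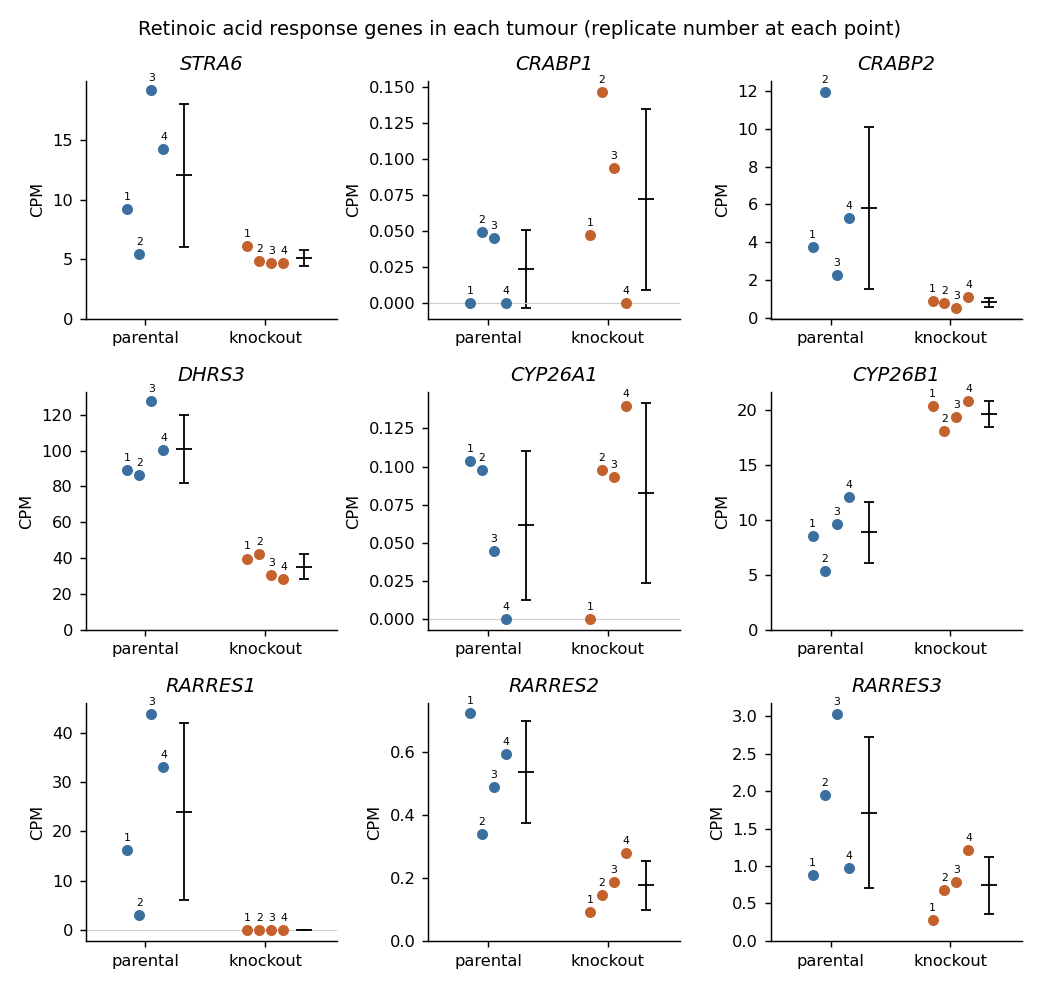
CPM of the 9 members in each tumour (points, replicate number above), with mean and SD over 4 tumours beside each group (black bars). RARRES1, CRABP2, DHRS3 and RARRES2 lie lower in all knockout tumours than in any parental tumour, CYP26B1 lies higher, and CRABP1 and CYP26A1 stay under 0.15 CPM throughout.

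STRA6, the cell surface receptor that takes up retinol from its blood carrier (ENSG00000137868, chromosome 15, 74179466 to 74212267, minus strand, GENCODE 29 on GRCh38), was at 9.22, 5.42, 19.2 and 14.3 CPM in parental replicates 1 to 4. In knockout replicates 1 to 4 it was at 6.07, 4.83, 4.67 and 4.71 CPM. Parental replicates 3 and 4 were high, while parental replicate 2 fell within the knockout range, so the groups overlapped. STRA6 fell to 42.0% of the parental level (log2 fold change -1.25, SE 0.318, edgeR adjusted p = 0.0130). Its exons share 540 bases with CCDC33 on the opposite strand, a gene with 117 parental and 29 knockout counts in all.

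CRABP2, the carrier that hands retinoic acid to its nuclear receptors (ENSG00000143320, chromosome 1, 156699606 to 156705816, minus strand), was at 3.73, 12.0, 2.28 and 5.27 CPM in parental and 0.888, 0.780, 0.513 and 1.07 CPM in knockout replicates 1 to 4. The groups did not overlap, and parental replicate 2 stood highest. CRABP2 fell to 14.1% of the parental level (log2 fold change -2.82, SE 0.487, edgeR adjusted p = 0.00134). Without parental replicate 2, which also had the highest fibroblast, leukocyte and muscle marker sums, the log2 fold change was -2.20 and the call held. The part of host cells in the CRABP2 level of that tumour was not tested. The related carrier CRABP1 (ENSG00000166426, chromosome 15, 78340324 to 78348230, plus strand) had 2 counts over all parental and 6 over all knockout libraries, a ratio of 3.03 (95% exact interval 0.542 to 30.7, counting error only), so no difference was detectable at this depth (exact two-sided permutation p = 0.286, 0.429 after adjustment over the 3 members under the filter).

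DHRS3, the short-chain reductase that returns retinal to retinol and is a common readout of retinoic acid (ENSG00000162496, chromosome 1, 12567910 to 12617731, minus strand), was the most abundant member. It was at 89.1, 86.3, 128 and 100.4 CPM in parental replicates 1 to 4 and at 39.8, 42.5, 30.3 and 28.4 CPM in knockout replicates 1 to 4. No knockout tumour reached 50% of the lowest parental value. DHRS3 fell to 34.9% of the parental level (log2 fold change -1.52, SE 0.160, edgeR adjusted p = 4.57e-05), and leaving out any 1 tumour gave -1.62 to -1.39.

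CYP26B1, which hydroxylates retinoic acid and so starts its breakdown (ENSG00000003137, chromosome 2, 72129238 to 72148038, minus strand), was the member called higher. It was at 8.54, 5.37, 9.65 and 12.1 CPM in parental replicates 1 to 4. In the knockout it was at 20.4, 18.1, 19.4 and 20.9 CPM, with a highest-to-lowest ratio of 1.15 among the 4 tumours against 2.25 among parental ones. CYP26B1 rose 2.20-fold (log2 fold change 1.14, SE 0.196, edgeR adjusted p = 0.00133), with no overlap between the groups. CYP26A1 (ENSG00000095596, chromosome 10, 93073475 to 93077890, plus strand), the hydroxylase whose promoter carries the marked element and which retinoic acid induces strongly in many cells, had 5 parental and 7 knockout counts in all, at most 0.140 CPM in any tumour (ratio 1.42, 95% exact interval 0.387 to 5.66; exact permutation p = 0.771, the same after adjustment).

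RARRES1, a membrane protein of the latexin family also known as TIG1 (ENSG00000118849, chromosome 3, 158696892 to 158732696, minus strand), reached 16.3, 2.98, 43.8 and 33.1 CPM in parental replicates 1 to 4, from 314, 61, 980 and 778 counts. Knockout replicates 1 to 4 held 2, 0, 0 and 1 counts. Every parental tumour was above every knockout tumour, yet the parental tumours differed 14.7-fold among themselves, with replicate 2 lowest and replicate 3 highest. Those 2 tumours had the highest leukocyte marker sums, 68.3 and 59.0 CPM, and the part of leukocytes in the RARRES1 level was not tested. The pooled parental-to-knockout ratio was 703 (95% exact interval 240 to 3412, counting error only), and leaving out 1 tumour gave 515 (without parental replicate 3) to 1577 (without knockout replicate 1, which held 2 of the 3 counts). In the annotation 331 exonic bases of RARRES1 are shared with MFSD1 on the opposite strand.

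RARRES2 encodes chemerin, a secreted attractant of leukocytes (ENSG00000106538, chromosome 7, 150338317 to 150341674, minus strand). It had 14, 7, 11 and 14 counts in parental and 2, 3, 4 and 6 counts in knockout replicates 1 to 4, which put it under the filter. All knockout values lay below all parental ones, at 0.0935 to 0.280 against 0.342 to 0.725 CPM (exact two-sided permutation p = 0.0286, the smallest that 4 against 4 allows, and 0.0857 after adjustment over the 3 members under the filter). The knockout-to-parental ratio of pooled counts was 0.330 (95% exact interval 0.171 to 0.601, counting error only). Where the filter was dropped, RARRES2 was called lower with a log2 fold change of -1.60 (edgeR adjusted p = 0.0231). DESeq2 also called it lower, at -1.63 (DESeq2 adjusted p = 0.0413). That fit used DESeq2's own filtering by mean count, which left CRABP1 and CYP26A1 without an adjusted p-value. RARRES2 passed the main filter in 5 of the 8 fits that left out 1 tumour. It was called lower in each of them (log2 fold changes -1.87 to -1.36, edgeR adjusted p = 0.00946 to 0.0475). No knockout library reached the filter's minimum count of 10, so RARRES2 entered these fits through the parental group alone. These calls therefore add no separate support.

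RARRES3, a phospholipase and acyltransferase of the PLAAT family (ENSG00000133321, chromosome 11, 63536809 to 63546462, plus strand), was at 0.880, 1.95, 3.04 and 0.978 CPM in parental and 0.280, 0.682, 0.793 and 1.21 CPM in knockout replicates 1 to 4. The groups overlapped, with knockout replicate 4 above parental replicates 1 and 4. The difference did not pass the test (log2 fold change -1.20, SE 0.474, edgeR adjusted p = 0.0846). Leaving out 1 tumour at a time gave -1.54 to -0.77 with no call, and without the filter on low counts it was -1.22 with a call (edgeR adjusted p = 0.0337).

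Per kilobase of annotated exon, mean levels in parental tumours ran from DHRS3 (33.2 ± 6.21 CPM per kb) through RARRES1 (10.7 ± 8.06), CRABP2 (5.28 ± 3.89), CYP26B1 (1.78 ± 0.555), STRA6 (1.57 ± 0.783), RARRES3 (1.32 ± 0.776) and RARRES2 (0.280 ± 0.0844) to CRABP1 (0.0235 ± 0.0272) and CYP26A1 (0.0207 ± 0.0164; SD, n = 4 each). DHRS3 stood clear of all others in every parental tumour, with a lowest value of 28.4 CPM per kb. RARRES1 (1.33 to 19.6) and CRABP2 (2.07 to 10.9) overlapped each other. Both also overlapped CYP26B1, STRA6 and RARRES3, which reached 2.41, 2.50 and 2.34 and overlapped among themselves. In knockout tumours DHRS3 (11.6 ± 2.28) was still first, CYP26B1 (3.93 ± 0.241) was second and clear of its neighbours, and CRABP2 (0.740 ± 0.213), STRA6 (0.659 ± 0.0874) and RARRES3 (0.572 ± 0.295) overlapped. RARRES1 had become the lowest of the 9 (0.0157 ± 0.0200), within the spread of CYP26A1 and CRABP1.

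RARRES1 was next placed beside its neighbours on chromosome 3. LXN, the carboxypeptidase inhibitor latexin and the relative of RARRES1, has its start 60.0 kb downstream on the same strand (ENSG00000079257, chromosome 3, 158645822 to 158672693, minus strand). It was at 13.6, 2.98, 23.9 and 25.4 CPM in parental replicates 1 to 4 and at 0.327, 0.536, 0.513 and 0.420 CPM in knockout replicates 1 to 4. Parental replicate 2 was lowest for LXN as it was for RARRES1, and the groups did not overlap. LXN fell to 2.75% of the parental level (log2 fold change -5.18, SE 0.635, edgeR adjusted p = 0.000132). With 7, 11, 11 and 9 counts in knockout replicates 1 to 4, LXN passed the filter through the parental group alone. Its call therefore adds no separate support. LXN lies inside GFM1, on the opposite strand, with 45 exonic bases in common.

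The other protein-coding neighbours, taken after the values of RARRES1 and LXN had been seen, differed far less. GFM1, a mitochondrial translation factor, went from 62.0 ± 8.81 to 48.4 ± 3.76 CPM (SD, n = 4 each; log2 fold change -0.36, SE 0.108, edgeR adjusted p = 0.0296). MFSD1, a lysosomal transporter, had a log2 fold change of -0.51 (edgeR adjusted p = 0.0102) and RSRC1 of -0.43 (edgeR adjusted p = 0.0310), while MLF1 at -0.48 did not pass (edgeR adjusted p = 0.0972). RARRES1 and LXN were thus set apart from the genes around them by size, each with knockout values under 1 CPM.

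**Figure D2:**
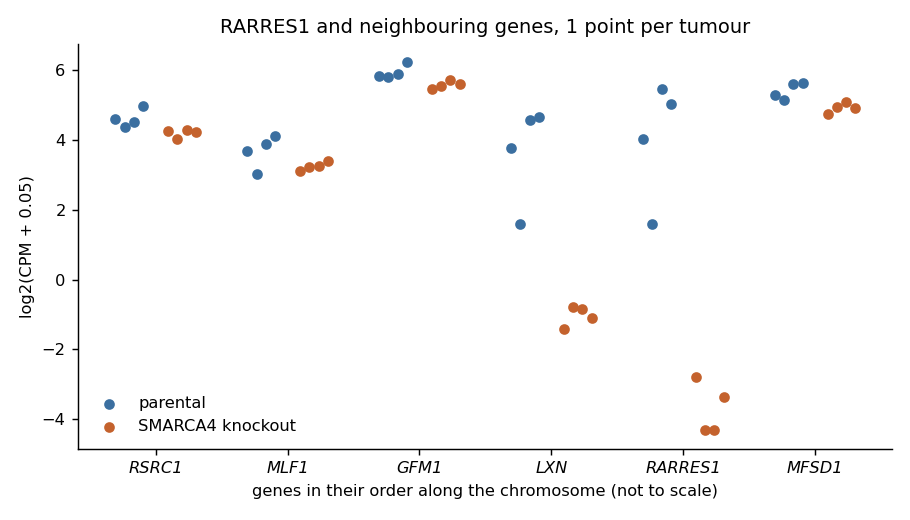
Levels of RARRES1, LXN and 4 neighbouring genes in each tumour, as log2 of CPM plus 0.05, with parental (blue) and knockout (orange) tumours side by side. LXN and RARRES1 lie below 1 CPM (0 on the axis) in all knockout tumours, while GFM1, MFSD1, RSRC1 and MLF1 stay above 8 CPM in every tumour.

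Over all 16218 other tested genes, the 5 profiles most like that of RARRES1 were KLK13, CXCL17, AC121764.1, KLK11 and LPL. Likeness was the root mean square difference of log2 CPM over the 8 tumours, each gene centred on its own mean, and it was 0.901, 1.28, 1.31, 1.37 and 1.38 for these genes. KLK13 and KLK11 are kallikrein peptidases, CXCL17 is a mucosal chemokine and LPL is lipoprotein lipase. CXCL17 ran from 6.64 to 50.7 CPM in parental and from 0.0975 to 0.374 CPM in knockout tumours, and KLK11 from 5.22 to 32.6 and from 0.140 to 0.280 CPM. KLK13, AC121764.1 and LPL had 3, 2 and 2 counts over all knockout libraries, and the 3 KLK13 counts were all in knockout replicate 1. LXN ranked 30 by this measure (2.07). The measure includes the difference between the groups, which RARRES1 was chosen for.

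The parental tumours also differed among themselves. From low to high RARRES1 the order was replicate 2, 1, 4 and 3, and STRA6 and DHRS3 had that same order, as did 6 of the 56 tested genes of the wider retinoid list (RDH10, DHRS9, ADH7, RXRA, MEIS2 and FOXA1). Over all tested genes 3.57% had it, and 26.7% were lowest in parental replicate 2. CRABP2 ran otherwise, with replicate 3 lowest and replicate 2 highest. The order was noticed in these data and rests on 4 tumours.

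**Figure D3:**
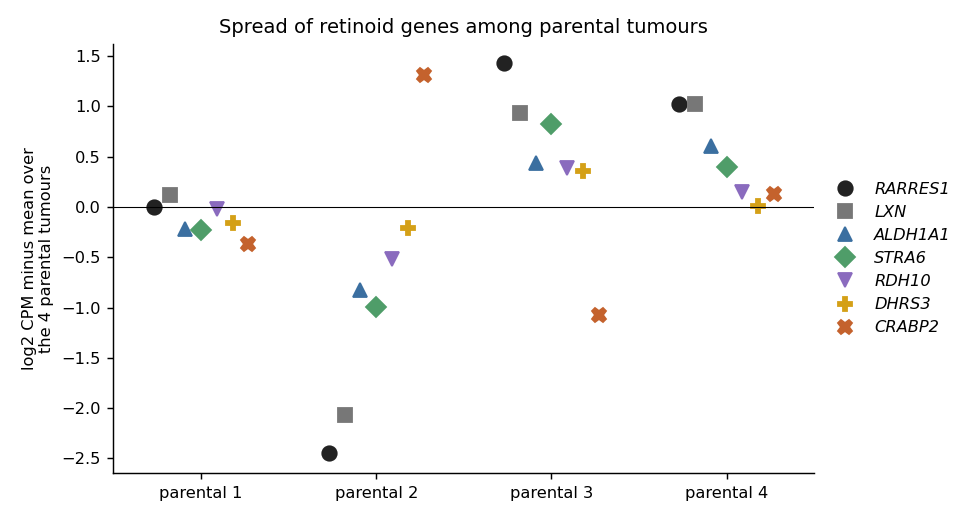
Log2 CPM of 7 retinoid genes in the 4 parental tumours, each minus the gene's mean over those tumours (0 line). RARRES1, LXN, ALDH1A1, STRA6, RDH10 and DHRS3 are lowest in parental replicate 2, where CRABP2 is highest.

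A wider list of 74 genes of retinoid handling and response was then read from the same fit. It was set by name, with earlier results of these tumours known. Of these, 56 passed the filter and 24 were called, 14 lower and 10 higher (42.9%, against 27.0% of all tested genes). The median log2 fold change of the list was -0.0899, against 0.0035 over all genes tested, and it was the same with ADH7 at its bound.

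Enzymes on the way to retinoic acid differed in both directions. ALDH1A1, which oxidises retinal to retinoic acid, was at 187, 122, 296 and 331 CPM in parental and 34.4, 44.1, 38.1 and 49.7 CPM in knockout replicates 1 to 4. The groups did not overlap, and ALDH1A1 fell to 17.8% (log2 fold change -2.49, SE 0.273, edgeR adjusted p = 5.88e-05). ALDH1A3, which does the same step, had a log2 fold change of -0.06 that did not pass (edgeR adjusted p = 0.792), and ALDH1A2 had 9 parental and 39 knockout counts in all. RDH10, which oxidises retinol to retinal and works in a complex with DHRS3, fell from 314 ± 78.4 to 162 ± 31.5 CPM (SD, n = 4 each; log2 fold change -0.95, SE 0.188, edgeR adjusted p = 0.00307).

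ADH7, an alcohol dehydrogenase of epithelia that accepts retinol, was counted 16, 14, 52 and 54 times in parental replicates 1 to 4 and never in a knockout library. With 3 counts allowed over the knockout libraries together, it was 44.8-fold lower. The test belongs to the fitted log2 fold change of -8.05 (edgeR adjusted p = 0.000757), which rests on no knockout counts. The exact 95% lower limit of the parental-to-knockout ratio was 35.97 (counting error only). ADH7 passed the filter through the parental group alone, so its call adds no separate support. AKR1B10, an aldo-keto reductase that converts retinal to retinol, fell from 786 ± 261 to 416 ± 124 CPM with overlapping groups (log2 fold change -0.92, SE 0.256, edgeR adjusted p = 0.0205), and the call ended without parental replicate 4 (edgeR adjusted p = 0.051) or knockout replicate 3 (0.0577). The oxidoreductases RDH13 and SDR16C5 rose, with log2 fold changes of 0.80 (edgeR adjusted p = 4.92e-05) and 0.42 (edgeR adjusted p = 0.00975). In all, 5 of the 11 tested retinol-retinal oxidoreductases were called, 3 lower and 2 higher (45.5%, against 27.0% of all tested genes). ADH7 is among the 3 lower.

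Among genes of retinol transport and storage, the blood carrier gene RBP4 had 53 parental and 11 knockout counts and was not in the fit. LRAT, DGAT1 and SCARB1 were tested and not called.

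Among the receptors, RARA and RARG fell and RARB, RXRA and RXRB did not pass the test. RARG, the main retinoic acid receptor of skin and other surface epithelia, was at 37.6, 30.2, 36.0 and 41.9 CPM in parental and 16.3, 14.97, 18.7 and 19.7 CPM in knockout replicates 1 to 4 (log2 fold change -1.06, SE 0.125, edgeR adjusted p = 9.83e-05). RARA was at 41.2, 48.7, 49.9 and 31.8 CPM and 26.4, 28.3, 26.6 and 21.5 CPM in the same order (log2 fold change -0.74, SE 0.145, edgeR adjusted p = 0.00301). Neither gene's groups overlapped. RARB, a direct target of retinoic acid whose element is shown above, averaged 14.3 ± 3.82 CPM in the parental group and 13.6 ± 2.06 CPM after knockout (SD, n = 4 each; log2 fold change -0.08, SE 0.193, edgeR adjusted p = 0.807). RXRA and RXRB, the partner receptors, had values of -0.09 (edgeR adjusted p = 0.504) and -0.03 (edgeR adjusted p = 0.857), and RXRG had 2 counts in all.

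Of the 12 coregulators, 4 were called (33.3%, near the 27.0% of all tested genes). The coactivator NCOA3 rose (log2 fold change 0.45, SE 0.109, edgeR adjusted p = 0.00955). Its groups overlapped, with knockout replicate 4 at 120.5 CPM and parental replicate 2 at 122.2 CPM. PRAME, a repressor of retinoic acid receptor signalling in tumours, also rose (log2 fold change 0.89, SE 0.204, edgeR adjusted p = 0.00778). NRIP1, a corepressor that retinoic acid itself induces, fell (log2 fold change -0.70, SE 0.101, edgeR adjusted p = 0.000414). HDAC3, a histone deacetylase of corepressor complexes, fell by 0.24 on the log2 scale (edgeR adjusted p = 0.0378). That call was lost in 6 of the 8 fits that left out 1 tumour (all but those without parental replicate 1 or 2; edgeR adjusted p = 0.0552 to 0.103), with upper-quartile scaling and with the replicate number as a block (0.0765 each) and without the filter (0.0975). NCOR1, NCOA1, NCOA2, EP300 and CREBBP were tested and not called.

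Genes otherwise known to be induced by retinoic acid went both ways, 3 higher and 4 lower among 15 tested, where 13.0% of all tested genes were called higher and 14.1% lower. TGM2, tissue transglutaminase, was at 842, 762, 799 and 740.4 CPM in parental and 1927, 1593, 2101 and 1596 CPM in knockout replicates 1 to 4 and rose 2.30-fold (log2 fold change 1.20, SE 0.108, edgeR adjusted p = 1.61e-05). HOXB5 (log2 fold change 1.89, SE 0.310, edgeR adjusted p = 0.000971) and the airway G protein-coupled receptor gene GPRC5A (log2 fold change 0.85, SE 0.205, edgeR adjusted p = 0.0101) rose too, the latter with overlapping groups. HOXB5 had 8, 23, 16 and 10 counts in parental replicates 1 to 4. It passed the filter through the knockout group alone, so its call adds no separate support. The transcription factor genes FOXA1 (log2 fold change -0.81, SE 0.118, edgeR adjusted p = 0.000434) and MEIS2 (log2 fold change -0.79, SE 0.0924, edgeR adjusted p = 9.87e-05) fell. MEIS1 (log2 fold change -0.41, edgeR adjusted p = 0.0339) and NEDD9 (-0.44, edgeR adjusted p = 0.0205) also passed. The NEDD9 call ended without knockout replicate 2 (edgeR adjusted p = 0.0603) or 4 (0.0558). The MEIS1 call ended without parental replicate 1 or 3 or knockout replicate 2, 3 or 4 (0.0601 to 0.0946), with upper-quartile scaling (0.056) and with the replicate number as a block (0.0584).

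The receptors of chemerin, the RARRES2 product, changed in opposite directions. GPR1, a signalling receptor, was at 0.311, 0.293, 0.223 and 0.468 CPM in parental and 5.14, 5.22, 6.49 and 6.82 CPM in knockout replicates 1 to 4 and rose 17.9-fold (log2 fold change 4.16, SE 0.250, edgeR adjusted p = 1.17e-06). CCRL2, which binds chemerin without passing on a signal, was at 1.55, 2.49, 1.61 and 1.66 CPM and 0.187, 0.390, 0.327 and 0.327 CPM and fell to 17.1% (log2 fold change -2.55, SE 0.302, edgeR adjusted p = 0.000105). For neither gene did the ranges touch. GPR1 passed the filter on low counts through the knockout group alone and CCRL2 through the parental group alone. Their calls therefore add no separate support. CMKLR1, the leukocyte receptor that gives chemerin its attractant effect, had 15 parental counts, 11 of them in parental replicate 2, and 7 knockout counts. Parental replicate 2 had the highest leukocyte marker sum, also the highest CCRL2 value, and the part of leukocytes in CCRL2 was not tested. Without that tumour CCRL2 had a log2 fold change of -2.37 and the call held.

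In the PLAAT family of RARRES3, PLAAT3, a phospholipase of adipocytes and other cells, rose from 14.97 ± 1.41 to 29.6 ± 4.12 CPM (SD, n = 4 each; log2 fold change 0.98, SE 0.120, edgeR adjusted p = 0.000126). PLAAT1 and PLAAT2 were tested and not called, and PLAAT5 had no counts. Adipocyte markers summed to less than 1 CPM in every library, and the part of adipocytes in the PLAAT3 level was not tested.

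**Figure D4:**
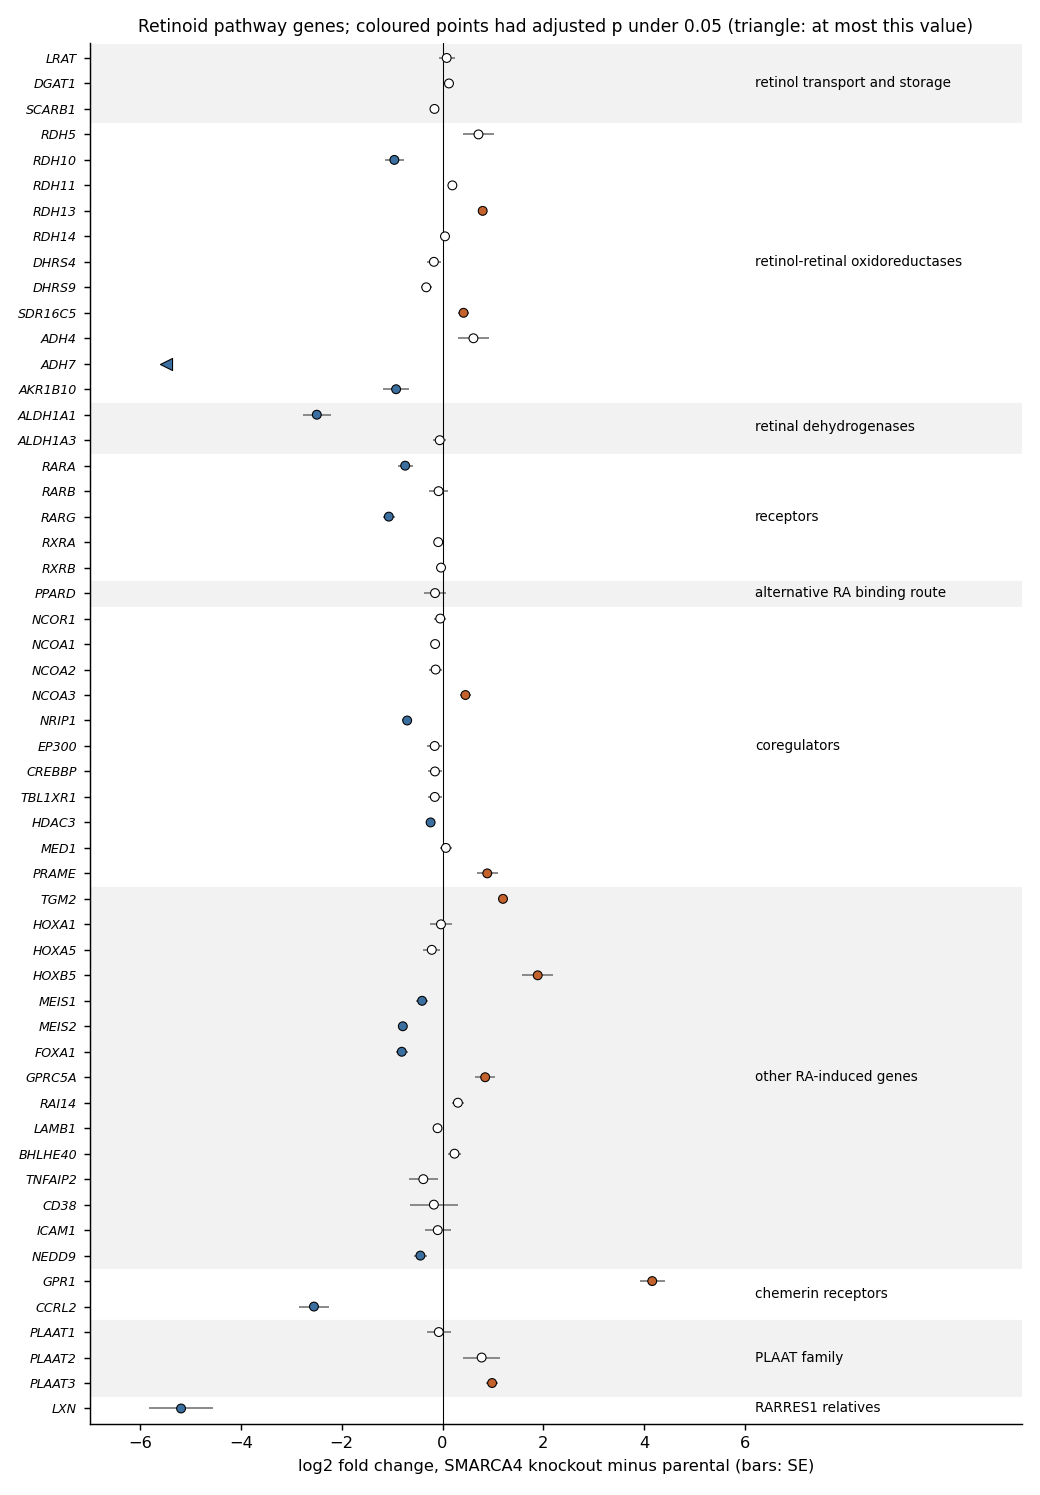
Log2 fold changes (knockout minus parental, bars are SE) of 54 of the 56 retinoid pathway genes in the fit, by role, with genes of adjusted p under 0.05 coloured (orange higher, blue lower). GPR1 stands highest of the genes drawn, and LXN and ALDH1A1 are far to the left. The triangle for ADH7 marks its bound with 3 knockout counts allowed (44.8-fold lower).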

How the data were processed

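RNA from 4 parental and 4 SMARCA4 knockout xenograft tumours had been sequenced and deposited as 1 file per tumour. The authors deposited raw read counts per gene symbol in htseq-count layout. The submitters' processing notes name TopHat2 2.1.1, HTSeq 0.11.0 and hg38. The annotation, the strand setting, the counting options and any removal of mouse reads are not given in the sources used here, so reads of overlapping genes, of paralogs such as FABP5 and its pseudogenes, and of the host can be misassigned. The 5 summary lines were left out. Of all reads in the files, 79.1% to 85.2% were assigned to genes.

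Counts were fitted across all genes with edgeR 4.0.16 in R 4.3.3 (TMM scaling, filterByExpr at a minimum count of 10 and total of 15, quasi-likelihood test, no covariate, Benjamini-Hochberg adjustment), and the code was first tested on simulated data. Members under the filter were compared by exact permutation of CPM and by pooled counts with exact 95% binomial intervals. These intervals carry counting error only and not the spread between tumours. A count of 0 was taken to allow 3 counts. Log2 CPM for the likeness measure used a prior count of 0.5. GENCODE 29 (GRCh38) gave positions and exon lengths by symbol. The members, the lists and the tests were chosen with earlier results of these data known. Named were all members, SMARCA4, every called gene of the 74-gene list, 13 receptors, enzymes and relatives regardless of result, and the 5 genes most like RARRES1. Any such gene absent from the text is not reported here. Alternatives were 3 other scalings, DESeq2 1.42.0, 2 other filters, the replicate block and leaving out each tumour.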

Additional observations from a re-analysis of the deposited data

Results flagged for a closer look

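For 85 sets of 4 values, the highest or lowest tumour was compared with the other 3 of its group, and 4 stood apart by Dixon's criterion. Chance alone flags about 5% of sets, and 4 of 85 is near that share. STRA6 reached 6.07 CPM in knockout replicate 1, beside 4.67 to 4.83 CPM in the other knockout tumours, and this was the knockout value that overlapped the parental range. NCOA3 had its low value, 120.5 CPM, in knockout replicate 4, beside 159 to 163 CPM in the others. CCRL2 was at 2.49 CPM in parental replicate 2 and at 1.55 to 1.66 CPM in the other parental tumours. KLK13 had 0.140 CPM (3 counts) in knockout replicate 1 and none in the others. With no counts in the others, any count in a single tumour would be flagged, so this flag says nothing about size.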

How the results depend on the processing

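Of 582 tested fold changes of 39 genes followed under 15 alternatives, 557 kept their direction and their side of the threshold, 20 lost a call, 1 gained a call (RARRES3; RARRES2, outside the fit described, is not among them) and 4 changed sign. The sign changes were all in genes without a call: with 1 tumour left out RARB ran from -0.241 to 0.042 (without parental replicate 4), ALDH1A3 from -0.126 to 0.043 (without the same tumour) and RXRB from -0.105 to 0.019 (without parental replicate 3), and RXRB was at 0.0078 with upper-quartile scaling. The lost calls were those of AKR1B10, HDAC3, MEIS1 and NEDD9. The number of members called, RARRES1 aside, was 4 in the fit described and 4 to 6 under the alternatives. It was 24 for the wider list, with 22 to 27 under the alternatives. Over all genes it was 4385, with 3501 to 4721 when 1 tumour was left out and 3871 with the replicate number as a block. That block gave 4 members and 22 genes of the wider list, and it ended no call other than those of HDAC3 and MEIS1 among the named genes. Nothing in the labels says that equal numbers mark paired tumours, and deviations from the group means of equally numbered tumours correlated across genes at -0.175 to 0.0791. Scaling moved the median of all genes by at most 0.0378. Depth limits CRABP1, CYP26A1, RARRES2 and the knockout level of RARRES1, which rest on a few counts each.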
